A study of Drosophila melanogaster with 7 samples.

Results

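Glutathione S-transferases (GSTs) are enzymes that join the tripeptide glutathione to reactive or foreign compounds, or use it to reduce them. The genes described here are those whose symbol in the deposited table begins with Gst followed by a capital letter for the class, which gave 35 of 17208 genes. They are 11 delta (GstD), 14 epsilon (GstE), 3 omega (GstO), 1 sigma (GstS), 4 theta (GstT) and 2 zeta (GstZ) genes. All 35 were found in the fly annotation used here under the same symbol. Expression was measured by RNA sequencing in wing imaginal discs, the epithelial sacs of the larva from which the wing and notum of the adult develop, taken from third-instar Drosophila melanogaster. There were 4 libraries of the ds38k genotype, a mutant of dachsous (ds), which encodes an atypical cadherin, and 3 libraries labelled WT, whose library names begin with w1118.csvd111. The w1118 strain is a common white-eyed laboratory stock, and the labels do not explain the tag csvd111. The labels do not state whether ds38k was homozygous, how many animals were pooled, or that replicates came from separate dissections, so p-values reflect only how these samples vary, and that variation may be technical.

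In insects the delta and epsilon classes are large and are best known for detoxification, including insecticide resistance. GstD1 is a widely used readout of the antioxidant response driven by the transcription factor CncC. Omega enzymes transfer thiols and reduce dehydroascorbate, the sigma enzyme GstS1 conjugates products of lipid peroxidation, theta enzymes are shared with vertebrates, and zeta enzymes carry out an isomerisation in tyrosine breakdown. One epsilon gene, GstE14, also called noppera-bo, has a role outside detoxification, in the synthesis of the moulting steroid ecdysone in the prothoracic gland.

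The family was shifted upward in ds38k discs in the counts as deposited. Of the 24 GST genes with enough counts to be tested, 14 rose and 1 fell at an adjusted p under 0.05, where 34.2% of all 9294 tested genes rose and 30.8% fell (65% in either direction). The rises were largest for GstE3 and GstZ2, both about 10-fold from low levels, and the single fall was that of GstT4. GST transcripts are short, with medians of 725 to 1532 bases against 1852 bases for all tested genes. In these libraries fold change fell with transcript length (Spearman's rho -0.60 over 8598 protein-coding genes, given as a description), so short transcripts were on the whole higher in ds38k. With the trend of expression on transcript length removed from each library, 6 GST genes rose and 2 fell, where 27.6% of 9224 tested genes rose and 19.1% fell (46.7% in either direction). Fold change then still fell weakly with length (Spearman's rho -0.14 over protein-coding genes), so the correction did not take away the whole trend. Both results are therefore given for each tested member, and the 25% of tested GST genes that rose after the correction lies near the share of all genes.

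Total counts were 25192527 to 31141974 in ds38k and 21438604 to 31718937 in WT. The mutated gene ds averaged 201 ± 29.2 CPM (counts per 1000000 with TMM scaling; SD, n = 4) in ds38k and 1557 ± 139.98 CPM (SD, n = 3) in WT, and all ds38k libraries were below all WT libraries. Its log2 fold change was -2.95 ± 0.14 (SE; adjusted p = 4.7e-06 by edgeR). With the length trend removed it was smaller, at -1.19 ± 0.080 (adjusted p = 9.3e-05 by edgeR). Ribosomal RNA genes took 11.4% to 15.2% of counts in ds38k and 0.839% to 1.5% in WT. Of the 8 markers of wing disc epithelium, which included nub, ap and ci, all had counts in every library. They summed to 1636 to 2476 CPM in ds38k and 3097 to 4663 CPM in WT, and 6 of the 8 fell, where 30.8% of all tested genes fell. All marker sums and marker calls given here are without the length correction. Several libraries stood apart. In ds38k replicate 4 the summed level of 7 Hsp70 and Hsp68 genes, chosen after their values were seen, was 14884 CPM, against at most 151 CPM in the other ds38k libraries and 8.87 CPM in WT. Chi-square per degree of freedom was 222 to 250.1 between that library and the other ds38k libraries, and 33.8 to 67.3 among those 3. The summed level of 8 fat body markers was 1017, 3286, 989 and 119.9 CPM in ds38k replicates 1 to 4 and 108 to 136 CPM in WT. One of the 8, Sdr, supplied most of the WT sums and was lower in ds38k; the other 7 summed to 964, 3229, 933 and 61.6 CPM in ds38k replicates 1 to 4 and 14.1 to 26.9 CPM in WT. The 8 prothoracic gland markers summed to 287 CPM in ds38k replicate 3 and to 72.5 to 75.9 CPM in the other ds38k libraries, with 133 to 138 CPM in WT. Npc1a made up most of the WT sums, and the other 7 summed to 18.03, 16.3, 199 and 22.7 CPM in ds38k replicates 1 to 4 and 7.23 to 11.7 CPM in WT. Salivary gland markers reached 1279 CPM in ds38k replicate 1, against at most 11.7 CPM in WT. Without ds38k replicate 4 the family count was 14 higher and 2 lower. In bulk samples such as these, a change in the number of cells of a type and a change in RNA per cell cannot be told apart.

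GstD1 and GstS1 made up most of the family's RNA. Per kilobase of transcript, GstD1 had 1235 ± 199 CPM per kb in ds38k (SD, n = 4) and 730.4 ± 84.1 CPM per kb in WT (SD, n = 3), and ranked first of the 35 genes in both genotypes. By mean level GstS1 came next, with 312 ± 138 CPM per kb in ds38k and 422 ± 76.04 in WT. In ds38k replicates 2 and 3, however, GstS1 had 209.8 and 178 CPM per kb, below both GstE12 (286 and 237) and GstO3 (222 and 202), so its place did not exceed the spread between ds38k libraries. GstE12 and GstO3 took places 3 and 4 in both genotypes, and their order within ds38k did not exceed the spread between libraries, at 245 ± 35.7 and 219.6 ± 15.6 CPM per kb. GstT4 had place 10 in ds38k and place 5 in WT. Above 10 CPM per kb on average there were 16 genes in ds38k and 13 in WT.

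Of the 11 genes that were not tested, GstD7 and GstD8 had no count in any library, which allows a level of up to 0.0856 to 0.128 CPM per library (3 counts). The other 9 had counts that were too few or in too few libraries. They were GstD4, GstD5, GstD6, GstD11, GstE2, GstE4, GstE7, GstE10 and GstE14. All intervals and limits of this kind cover counting error only.

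**Figure D1:**
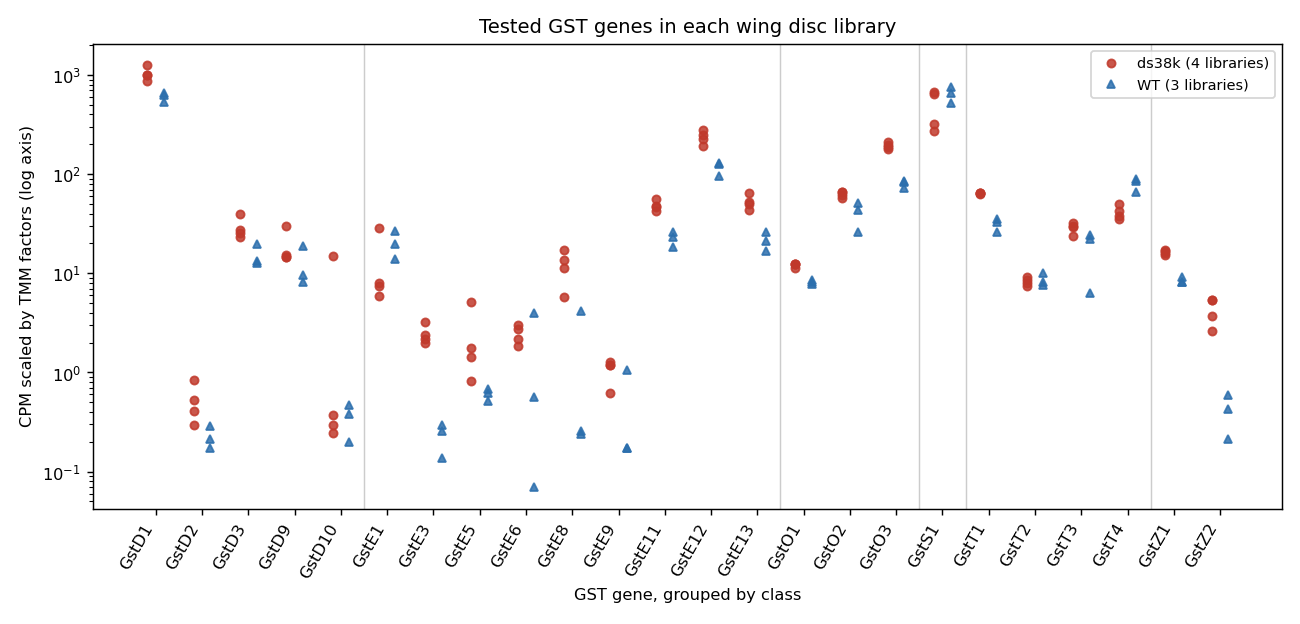
Level of each of the 24 tested GST genes in each library, in CPM scaled by TMM factors on a log axis, with 4 ds38k libraries as circles and 3 WT libraries as triangles. Circles lie above all triangles for 15 genes, and only for GstT4 do all circles lie below them.

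The delta genes lie in a row of 11 on chromosome arm 3R (3R:12364776-12385624, dm6 coordinates, 20.8 kb), and 5 of them were tested. GstD1 (3R:12367817-12369268), which encodes an enzyme able to break down DDT, had 991, 1009.7, 859.8 and 1258 CPM in ds38k replicates 1 to 4, against 633, 664 and 530.2 CPM in WT replicates 1 to 3. Every ds38k library lay above every WT library, and the log2 fold change was 0.76 ± 0.15 (SE; adjusted p = 0.00309 by edgeR). After the length trend was removed the value was 0.056 ± 0.21 (adjusted p = 0.841 by edgeR) and the groups overlapped. GstD3, a single-exon neighbour, had 27.3, 23.5, 25.4 and 39.5 CPM in ds38k replicates 1 to 4, against 19.5, 13.2 and 12.8 CPM in WT replicates 1 to 3. It was likewise higher in all ds38k libraries, by 0.93 ± 0.24 (SE; adjusted p = 0.0104 by edgeR) on the log2 scale, and stood at 0.21 ± 0.31 (adjusted p = 0.606 by edgeR) after the correction. So neither of the 2 delta genes that rose kept its call without the length trend.

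Among the remaining delta genes, GstD10, GstD9, GstD4 and GstD6 had 1 ds38k library far from the others. GstD10 had 10, 7, 6 and 413 counts in ds38k replicates 1 to 4, against 11, 7 and 11 counts in WT replicates 1 to 3. It thus reached 15.1 CPM in ds38k replicate 4 and stayed between 0.200 and 0.469 CPM in the other 6 libraries, so the groups overlapped. Its log2 fold change of 3.52 ± 1.73 (SE; adjusted p = 0.109 by edgeR) rests on that library, without which the gene had too few counts to be tested. With the length trend removed the value was 3.01 ± 1.77 (adjusted p = 0.198 by edgeR). GstD9 had 14.6, 15.5, 14.7 and 29.98 CPM in ds38k replicates 1 to 4, against 19.02, 9.56 and 8.23 CPM in WT replicates 1 to 3. Replicate 4 was again the highest of the ds38k libraries, about 2-fold above the others, and the difference of 0.61 ± 0.39 (SE; adjusted p = 0.203 by edgeR) did not pass the threshold. GstD2, at 0.524, 0.294, 0.411 and 0.841 CPM in ds38k replicates 1 to 4, against 0.213, 0.285 and 0.173 CPM in WT replicates 1 to 3, was higher in all ds38k libraries, with 7 to 23 counts there and 5 to 10 in WT. It was not called, at 1.19 ± 0.51 (SE; adjusted p = 0.0754 by edgeR), or 0.50 ± 0.57 (adjusted p = 0.499 by edgeR) with the length trend removed. GstD4 had 4, 3, 3 and 50 counts in ds38k replicates 1 to 4, against 4, 9 and 11 counts in WT replicates 1 to 3. GstD5 and GstD6 had 10 and 5 counts in ds38k replicate 4 and at most 2 in any other library. In all, 8 of the 9 delta genes with any count had the highest value of all 7 libraries in ds38k replicate 4. GstD6 had counts in that library only, so it entered this set through it and its place there was fixed. The share of all genes highest in replicate 4 among all 7 libraries was not computed. That library had 14884 CPM of Hsp70 and Hsp68 transcripts. The part of that heat shock signal in these values was not tested. Among tested genes and the 4 ds38k libraries only, which is another set than that of the 9 delta genes, 36.3% of all genes were highest in replicate 4. So were 12 of the 24 tested GST genes.

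**Figure D2:**
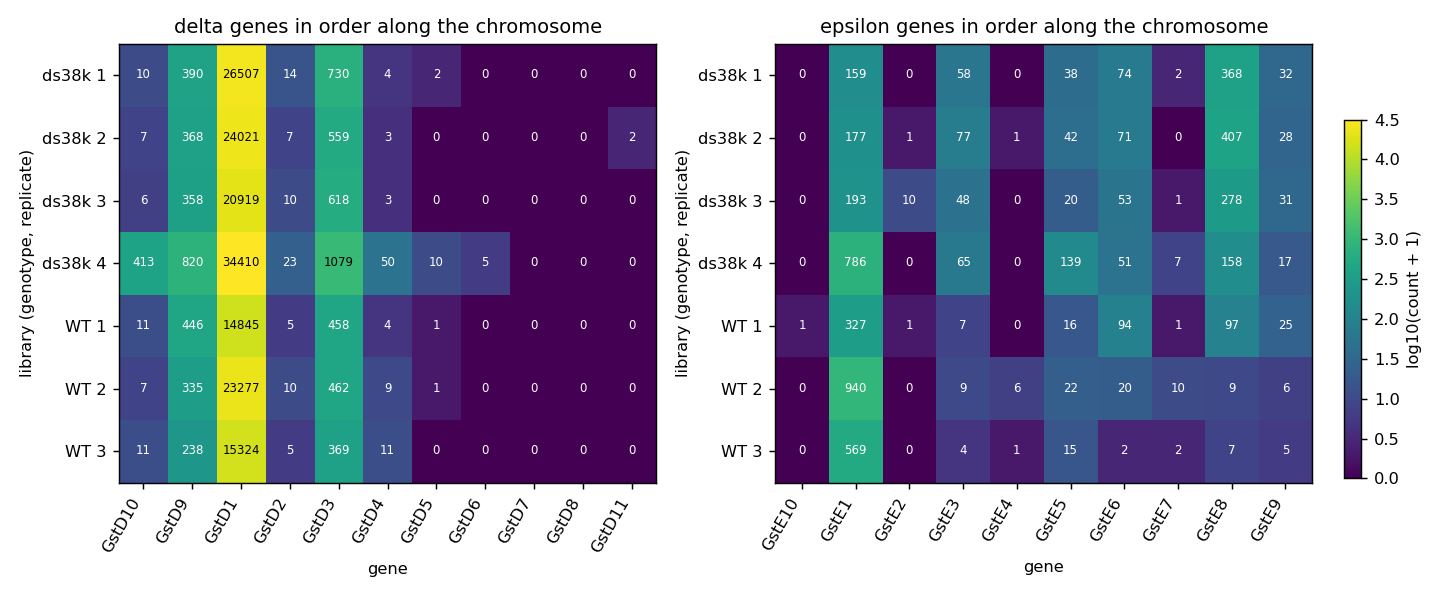
Counts of the 11 delta genes (left) and of the epsilon genes GstE1 to GstE10 (right), in their order along the chromosome, in 4 ds38k and 3 WT libraries, coloured by log10 of the count plus 1 with the rounded count printed. The row of ds38k replicate 4 is brighter from GstD10 to GstD6, with 413 counts of GstD10, and GstE6, GstE8 and GstE9 are brighter in WT replicate 1 than in the other WT libraries.

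The epsilon class held the largest number of tested genes, 9 of 14, and 6 of them rose, or 3 with the correction. Of all tested genes 34.2% rose, or 27.6% with the correction. Its genes GstE1 to GstE10 form a row on 2R (2R:18396638-18409835, 13.2 kb), while GstE11, GstE12, GstE13 and GstE14 lie elsewhere on that arm. GstE3 (2R:18400713-18401467) had 58, 77, 48 and 65 counts in ds38k replicates 1 to 4, against 7, 9 and 4 counts in WT replicates 1 to 3. Those counts correspond to 2.17, 3.24, 1.97 and 2.38 CPM in ds38k replicates 1 to 4, against 0.298, 0.257 and 0.138 CPM in WT replicates 1 to 3. The 4 ds38k values lay far above the 3 WT values, with a log2 fold change of 3.38 ± 0.41 (SE; adjusted p = 3.0e-04 by edgeR), and of 2.64 ± 0.41 (adjusted p = 0.00209 by edgeR) with the length trend removed. Its direct neighbours GstE2 and GstE4 had at most 10 counts in any library. GstE3 was called in each of the 7 fits that left out 1 library, with values of 3.11 to 3.59 without and 2.35 to 2.88 with the length correction.

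GstE12, the most abundant epsilon gene, had 247, 276, 229 and 194 CPM in ds38k replicates 1 to 4, against 127, 129 and 95.5 CPM in WT replicates 1 to 3. Every ds38k library was higher, by 1.02 ± 0.16 (SE; adjusted p = 0.00100 by edgeR) on the log2 scale, or 0.35 ± 0.12 (adjusted p = 0.0411 by edgeR) after correction. GstE13 had 52.4, 50.1, 43.6 and 64.9 CPM in ds38k replicates 1 to 4, against 26.1, 21.004 and 16.7 CPM in WT replicates 1 to 3. Its difference was 1.31 ± 0.19 (SE; adjusted p = 7.6e-04 by edgeR), and 0.67 ± 0.23 (adjusted p = 0.0489 by edgeR) with the correction. The corrected calls of both genes were near the threshold. That of GstE12 was lost without ds38k replicate 1 or 2 or any WT replicate, and that of GstE13 without ds38k replicate 4 or WT replicate 2 or 3, where adjusted p reached 0.160 and 0.196. GstE11 had 47.4, 56.4, 42.1 and 47.1 CPM in ds38k replicates 1 to 4, against 26.01, 23.2 and 18.6 CPM in WT replicates 1 to 3, again without overlap. It rose by 1.09 ± 0.15 (SE; adjusted p = 5.4e-04 by edgeR) and stood at 0.38 ± 0.16 (adjusted p = 0.0836 by edgeR) after correction. The 3 genes lie outside the row and, unlike the members within it, were above 10 CPM in all libraries.

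Within the row, 3 neighbours varied among the WT libraries. GstE8 had 13.8, 17.1, 11.4 and 5.78 CPM in ds38k replicates 1 to 4, against 4.14, 0.257 and 0.242 CPM in WT replicates 1 to 3. All ds38k libraries exceeded all WT libraries, and WT replicate 1 was over 10-fold above the other WT libraries. The log2 fold change was 2.98 ± 1.06 (SE; adjusted p = 0.0397 by edgeR), and 5.57 (adjusted p = 4.8e-04 by edgeR) without WT replicate 1. The call was lost without ds38k replicate 1, 2 or 3 and without WT replicate 2 or 3 (adjusted p up to 0.0966). With the length trend removed the value was 2.27 ± 1.01 (adjusted p = 0.104 by edgeR). GstE6 had 2.77, 2.98, 2.18 and 1.86 CPM in ds38k replicates 1 to 4, against 4.01, 0.571 and 0.0692 CPM in WT replicates 1 to 3. WT replicate 1 was the highest of all 7 libraries here, and the difference was 0.67 ± 1.01 (SE; adjusted p = 0.579 by edgeR), or 2.90 (adjusted p = 0.0229 by edgeR) without that library. GstE9 had 1.20, 1.18, 1.27 and 0.622 CPM in ds38k replicates 1 to 4, against 1.07, 0.171 and 0.173 CPM in WT replicates 1 to 3, with the same WT library standing out. Its difference was 1.21 ± 0.73 (SE; adjusted p = 0.182 by edgeR), or 2.61 (adjusted p = 0.00711 by edgeR) without it. Without WT replicate 1 and without the length correction, all 3 of these neighbours thus passed the threshold as higher in ds38k. With the correction and without that library, GstE8 (4.87, edgeR adjusted p = 0.00128) and GstE9 (1.86, edgeR adjusted p = 0.0237) were called. GstE6 (2.18, edgeR adjusted p = 0.0642) was not. Over all 7 libraries the corrected values were -0.12 for GstE6 (edgeR adjusted p = 0.930) and 0.43 ± 0.71 for GstE9 (edgeR adjusted p = 0.648). GstE12 shares 33 exonic bases with CG3894, GstE13 6 with CG18659, GstE1 20 with GstE10 and GstE9 40 with imd, each on the other strand, and the sources used here do not say whether counting used strand.

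GstE1 and GstE5 followed ds38k replicate 4. GstE1 had 5.95, 7.44, 7.93 and 28.7 CPM in ds38k replicates 1 to 4, against 13.9, 26.8 and 19.7 CPM in WT replicates 1 to 3. In 3 ds38k libraries it was below every WT library, whereas replicate 4 exceeded all WT libraries, and the overall difference of -0.69 ± 0.58 (SE; adjusted p = 0.324 by edgeR) was not called. Without that library the difference was -1.50 (adjusted p = 0.00163 by edgeR). With the length trend removed and no library left out, GstE1 stood at -1.30 ± 0.65 (adjusted p = 0.141 by edgeR). GstE5 had 1.42, 1.77, 0.822 and 5.08 CPM in ds38k replicates 1 to 4, against 0.682, 0.628 and 0.519 CPM in WT replicates 1 to 3. It was higher in all ds38k libraries, most in replicate 4, with a difference of 1.89 ± 0.66 (SE; adjusted p = 0.0368 by edgeR) and of 1.24 ± 0.73 (adjusted p = 0.198 by edgeR) after the correction. The uncorrected call of GstE5 was lost without ds38k replicate 2 and without any WT replicate, where adjusted p reached 0.113.

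GstE14 (noppera-bo), whose product acts in ecdysone synthesis, had more than 1 count in 1 library only. It had 0, 1, 190 and 0 counts in ds38k replicates 1 to 4, against 0, 1 and 0 counts in WT replicates 1 to 3, or 7.81 CPM in ds38k replicate 3. Of the same steroid pathway phm, sad and spok, named after their values were seen, were also highest in that library, whereas shd was highest in ds38k replicate 2 and Cyp6t3 in ds38k replicate 4. The values in ds38k replicates 1 to 4 were 2.43, 2.69, 41.3 and 4.90 CPM for phm and 7.11, 6.35, 60.7 and 5.05 CPM for sad, which both encode hydroxylases of the pathway, and WT reached at most 2.37 and 4.05 CPM. The gene spok, an early-step P450, had 68.7 CPM there and at most 0.0571 CPM in any other library. GstE14 was not tested for genotype, and leaving out ds38k replicate 3 leaves at most 1 count in any library. The part of gland cells in that sample was not tested.

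The omega genes lie together on 3L (3L:8518885-8524866), and all 3 were tested and rose. GstO3 (3L:8518885-8520295) had 189.9, 196, 178 and 211 CPM in ds38k replicates 1 to 4, against 83.4, 85.6 and 72.1 CPM in WT replicates 1 to 3. The groups were well apart, with a log2 fold change of 1.27 ± 0.098 (SE; adjusted p = 3.4e-05 by edgeR), the smallest adjusted p in the family. After the correction it was 0.58 ± 0.14 (adjusted p = 0.0141 by edgeR), a call that was lost without WT replicate 2 or 3 (adjusted p up to 0.0910). GstO2 had 66.6, 65.4, 60.95 and 57.8 CPM in ds38k replicates 1 to 4, against 26.01, 50.9 and 43.5 CPM in WT replicates 1 to 3. It rose by 0.64 ± 0.21 (SE; adjusted p = 0.0311 by edgeR), a call that was lost without ds38k replicate 1 or 2 or WT replicate 3 (adjusted p up to 0.0661). GstO1, with 12.4, 12.4, 12.5 and 11.3 CPM in ds38k replicates 1 to 4, against 8.66, 7.88 and 8.23 CPM in WT replicates 1 to 3, rose by 0.56 ± 0.13 (SE; adjusted p = 0.00729 by edgeR). The values after correction were -0.038 for GstO2 and -0.11 for GstO1, neither of them called. The related gene se (sepia), which lies in the same row under another symbol and encodes an omega enzyme of red eye pigment synthesis, averaged 0.978 ± 0.414 CPM in ds38k discs (SD, n = 4) and 0.429 ± 0.0839 CPM in WT discs (SD, n = 3), with a log2 fold change of 1.18 ± 0.45 (adjusted p = 0.0501 by edgeR). It shares 61 exonic bases with GstO2 on the opposite strand.

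GstS1 (2R:17093246-17099501), the only sigma gene, had 679, 321, 273 and 640.5 CPM in ds38k replicates 1 to 4, against 523, 754 and 662 CPM in WT replicates 1 to 3. Its ds38k libraries fell into a high pair, replicates 1 and 4, and a low pair, replicates 2 and 3, and the high pair overlapped with WT. The mean was 479 ± 211 CPM in ds38k discs (SD, n = 4) and 647 ± 116 CPM in WT discs (SD, n = 3). The log2 fold change of -0.43 ± 0.34 (SE; adjusted p = 0.298 by edgeR) did not pass the threshold, nor did the corrected value of -0.73 ± 0.35 (adjusted p = 0.127 by edgeR). No fit that left out a library called it. The summed level of 8 myoblast markers was 261, 234, 276 and 277 CPM in ds38k replicates 1 to 4 and 389.5, 283 and 322 CPM in WT replicates 1 to 3. That of 8 haemocyte markers, of which Ppn was the most abundant, was 342, 343, 331 and 269 CPM in ds38k and 624, 577 and 671 CPM in WT. Both sums were lower in every ds38k library than in any WT library, but single markers went both ways. Without Ppn, the other 7 haemocyte markers summed to 111 to 145 CPM in ds38k and 168 to 211 CPM in WT. Of the 8 myoblast markers 2 rose and 2 fell, and of the 8 haemocyte markers 1 rose and 3 fell. Of all tested genes 34.2% rose and 30.8% fell. These sums and calls are without the length correction. The part of these cell types in the GstS1 values was not tested.

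The theta class had called changes in both directions. GstT4 (X:13404749-13409323) had 38.1, 35.6, 42.7 and 49.5 CPM in ds38k replicates 1 to 4, against 85.2, 88.5 and 66.6 CPM in WT replicates 1 to 3. All 4 ds38k libraries lay below all WT libraries, with a log2 fold change of -0.95 ± 0.15 (SE; adjusted p = 0.00102 by edgeR). After the correction the fall was larger, at -1.42 ± 0.17 (adjusted p = 7.5e-04 by edgeR), and it was called in every fit that left out 1 library, with values of -1.58 to -1.30. GstT1 had 62.6, 64.4, 64.4 and 64.6 CPM in ds38k replicates 1 to 4, against 33.3, 34.9 and 26.3 CPM in WT replicates 1 to 3. The ds38k libraries differed by at most 1.03-fold among themselves and all exceeded WT, by 1.02 ± 0.11 (SE; adjusted p = 1.6e-04 by edgeR) on the log2 scale. The corrected value was 0.39 ± 0.12 (adjusted p = 0.0296 by edgeR), which was lost without any one of the WT replicates, where adjusted p reached 0.152.

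GstT2, which lies next to GstT1, had 8.49, 7.90, 7.44 and 9.18 CPM in ds38k replicates 1 to 4, against 8.23, 10.2 and 7.61 CPM in WT replicates 1 to 3. Its values overlapped before correction, with a difference of -0.073 ± 0.17 (SE; adjusted p = 0.727 by edgeR). With the length trend removed all ds38k libraries were lower, at 6.75, 6.07, 5.80 and 8.81 corrected CPM, against 11.1, 13.1 and 10.4 corrected CPM in WT, and the fall of -0.76 ± 0.20 (adjusted p = 0.0188 by edgeR) was called. That call was lost without WT replicate 2, ds38k replicate 2 or ds38k replicate 3 (adjusted p up to 0.0881). GstT2 shares 223 exonic bases with CG12926 on the opposite strand, so its counts are uncertain where strand was not used. GstT3 had 31.98, 30.2, 29.2 and 23.6 CPM in ds38k replicates 1 to 4, against 6.40, 24.6 and 22.4 CPM in WT replicates 1 to 3. WT replicate 1 was over 3-fold lower than the other WT libraries, the groups overlapped, and the difference of 0.69 ± 0.42 (SE; adjusted p = 0.179 by edgeR) was not called. With the length trend removed GstT3 stood at 0.035 ± 0.40 (adjusted p = 0.948 by edgeR).

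The zeta pair on 3R (3R:9455517-9460652) rose in both members, by different amounts. GstZ2 (3R:9456815-9460652) had 99, 129, 132 and 71 counts in ds38k replicates 1 to 4, against 5, 15 and 17 counts in WT replicates 1 to 3. In CPM these were 3.70, 5.42, 5.43 and 2.60 CPM in ds38k replicates 1 to 4, against 0.213, 0.428 and 0.588 CPM in WT replicates 1 to 3. The lowest ds38k library was over 4-fold above the highest WT library, and the log2 fold change was 3.36 ± 0.48 (SE; adjusted p = 6.5e-04 by edgeR), or 2.76 ± 0.44 (adjusted p = 0.00251 by edgeR) with the correction. It was called in all fits that left out 1 library, at 3.07 to 3.69 without and 2.46 to 3.11 with the length correction. GstZ1, its neighbour, had 17.1, 16.6, 16.03 and 15.2 CPM in ds38k replicates 1 to 4, against 8.23, 8.25 and 9.20 CPM in WT replicates 1 to 3. It rose by 0.92 ± 0.12 (SE; adjusted p = 5.0e-04 by edgeR) with little spread in either group, and stood at 0.23 ± 0.13 (adjusted p = 0.182 by edgeR) after correction. Their levels per kilobase were 3.92 CPM per kb for GstZ2 and 17.8 CPM per kb for GstZ1 in ds38k, and in WT 0.375 CPM per kb for GstZ2 and 9.38 CPM per kb for GstZ1.

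Fat body markers were higher in ds38k libraries too, and most so in replicate 2. The 7 markers other than Sdr summed to 3229 CPM in ds38k replicate 2 and to 61.6 CPM in replicate 4, against at most 26.9 CPM in WT. In those same libraries GstZ2 was at 5.42 and 2.60 CPM, against at most 0.588 CPM in WT. GstE3 was at 3.24 and 2.38 CPM, against at most 0.298 CPM in WT. GstE8 was at 17.1 and 5.78 CPM, against at most 4.14 CPM in WT. All 3 genes were thus higher in replicate 2 than in replicate 4, which is also the library with the high heat shock sum. The 7 markers stood at 964 and 933 CPM in ds38k replicates 1 and 3. GstE3 was there at 2.17 and 1.97 CPM, below its value in replicate 4. GstZ2 was at 3.70 and 5.43 CPM, so its highest library was replicate 3. GstE8 was at 13.8 and 11.4 CPM, between its values in replicates 2 and 4. The part of fat body cells in these values was not tested.

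**Figure D3:**
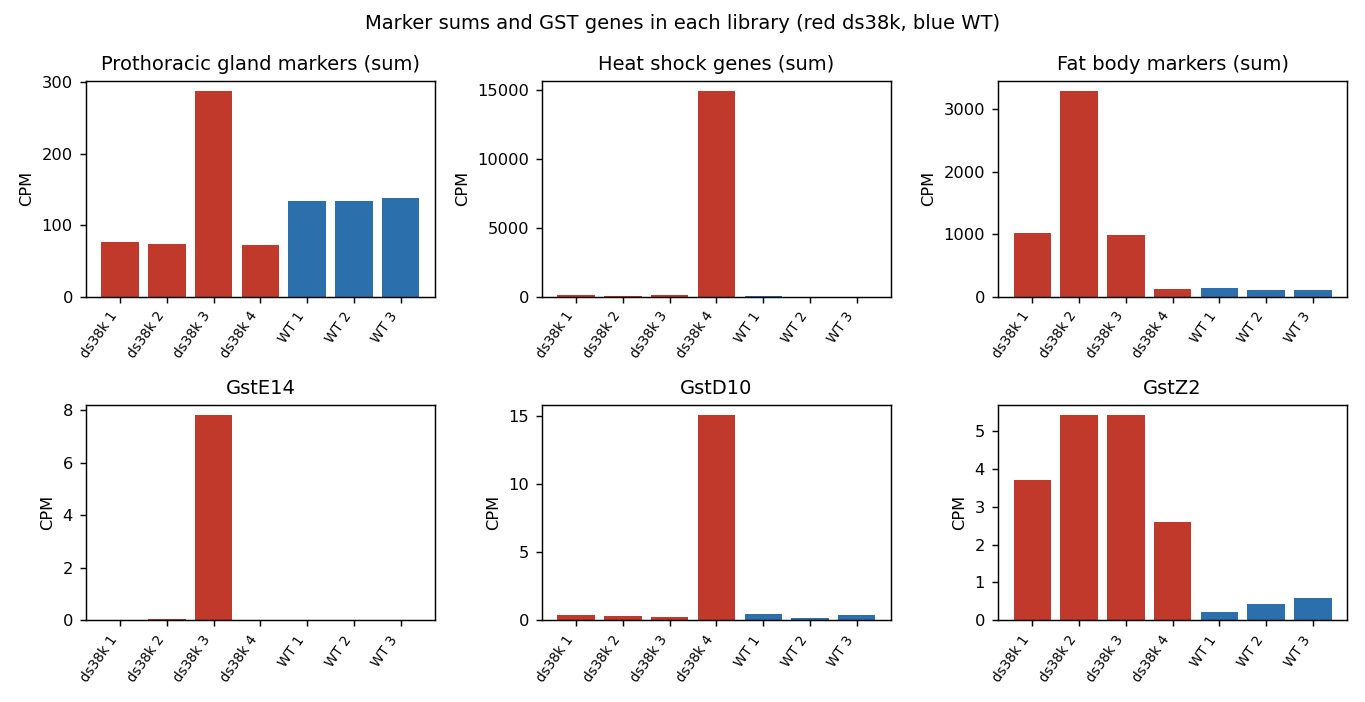
Summed CPM of 8 prothoracic gland markers, of 7 Hsp70 and Hsp68 genes and of 8 fat body markers (top), and CPM of GstE14, GstD10 and GstZ2 (bottom), in ds38k replicates 1 to 4 (red) and WT replicates 1 to 3 (blue). GstE14 and the gland markers peak in ds38k replicate 3, GstD10 and the heat shock genes in ds38k replicate 4, and GstZ2 is above WT in all 4 ds38k libraries.

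Taking the tested genes as one group, 20 of the 24 had a positive log2 fold change, where 52.0% of all tested genes did. The median of the 24 was 0.97, beside 0.070 over all tested genes. The groups did not overlap for 15 genes that were higher and 1 that was lower in ds38k, where 34.4% and 32% of all tested genes were so. At least 2-fold rises were called for 9 of the 24, against 16.5% of all genes, while a fall of at least 2-fold was called for 19.6% of all genes and the fall of GstT4 was 1.93-fold. After the length correction 16 of the 24 were positive, where 53.8% of all tested genes were. Their median was then 0.29 for the GST genes, beside 0.062 over all genes. The corrected values did not overlap for 8 genes that were higher and 2 that were lower, where 30% and 22.8% of all genes were so. There were 2 genes with a called rise of at least 2-fold, GstE3 and GstZ2, against 9.69% of all genes, and 1 with a called fall of at least 2-fold, GstT4, against 10.3%. The 6 genes called higher with the correction, GstE3, GstE12, GstE13, GstO3, GstT1 and GstZ2, were all among the 14 called without it. The 8 calls that were lost were those of GstD1, GstD3, GstE5, GstE8, GstE11, GstO1, GstO2 and GstZ1.

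**Figure D4:**
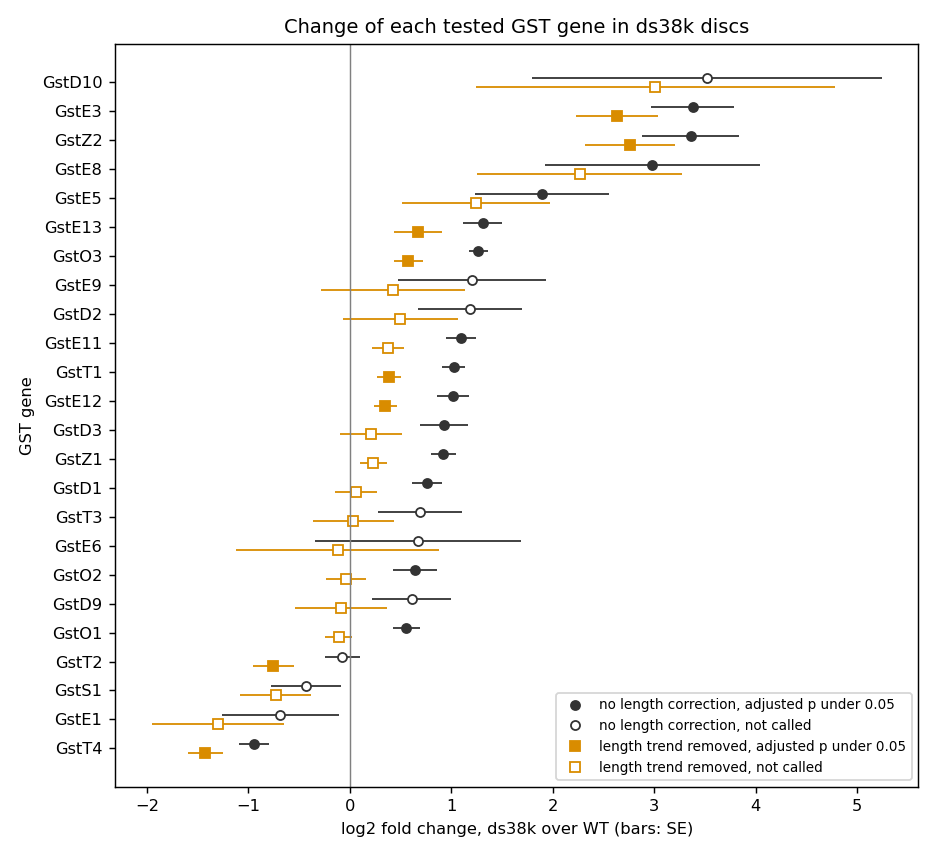
Log2 fold change of ds38k over WT for each of the 24 tested GST genes, with SE, without (grey circles) and with (orange squares) the length trend removed; filled symbols have an adjusted p under 0.05. Squares lie to the left of circles throughout, and GstE3, GstZ2 and GstT4 keep filled symbols farthest from 0.

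By class, the summed level in the epsilon genes was 372 ± 31.7 CPM in ds38k (SD, n = 4) and 186 ± 29.3 CPM in WT (SD, n = 3), which is 2.01-fold. The omega sum was 268 ± 12.3 CPM in ds38k and 129 ± 13.9 CPM in WT. The delta sum, which is nearly all GstD1, was 1083 ± 188 CPM in ds38k and 637 ± 74.3 CPM in WT. In these 3 classes and in zeta, every ds38k library exceeded every WT library. Zeta was the smallest, with 20.5 ± 1.91 CPM in ds38k and 8.97 ± 0.721 CPM in WT. The theta sum was 142 ± 3.74 CPM in ds38k and 138 ± 18.1 CPM in WT, where the groups overlapped, as they did for sigma. With the length trend removed, the sums over tested members overlapped for delta, at 695 to 1292 in ds38k and 758 to 921 in WT (corrected CPM), and for epsilon, at 268 to 336 in ds38k and 206 to 270.2 in WT. They remained apart for omega, at 196 to 269 in ds38k and 159 to 185 in WT, and for zeta, at 16.7 to 17.3 in ds38k and 11.1 to 13.3 in WT. For theta every ds38k library was then lower, at 110.5 to 140.5 in ds38k and 161 to 193 in WT.

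Without the length correction, the make-up of the family differed accordingly. Per kilobase of transcript, GstS1 accounted for 12.3% ± 4.35 of the family level in ds38k (SD, n = 4) and 25.3% ± 3.90 in WT (SD, n = 3). Delta genes held 52.6% ± 2.95 in ds38k and 46.03% ± 3.23 in WT, epsilon genes 16.3% ± 2.50 and 11.97% ± 1.33, and omega genes 12.3% ± 1.18 and 8.60% ± 0.480. GstS1 has the longest transcript of the family, and its value differed least between the fits. Shares with the length trend removed were not computed. With it removed, the sigma level overlapped between the genotypes, at 249.9 to 622 in ds38k and 589 to 846 in WT (corrected CPM). The class sums and shares are descriptions without a test.

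**Figure D5:**
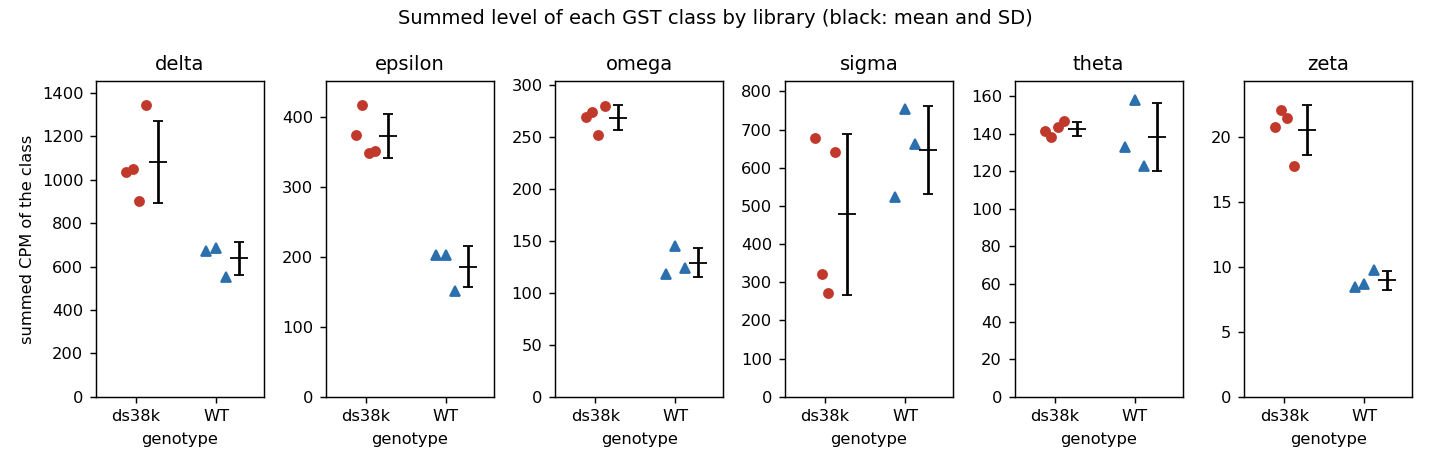
Summed CPM of each GST class in each library, without length correction, with 4 ds38k libraries (red circles) left of 3 WT libraries (blue triangles), and the mean with SD in black; each axis starts at 0. The ds38k and WT points are apart for delta, epsilon, omega and zeta and overlap for sigma and theta.

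Genes that supply or act beside the GSTs were counted in lists. Of 14 tested genes of thioredoxin, glutaredoxin and peroxide removal, 13 rose, or 8 with the correction, and no other member was called in either fit, beside 34.2% and 27.6% of all tested genes that rose. The corrected count was 4 without WT replicate 3. In the lists below, values are log2 fold changes ± SE, with calls by edgeR over all genes. Sod1, the cytosolic superoxide dismutase, averaged 722 ± 139 CPM in ds38k discs (SD, n = 4) and 156 ± 20.2 CPM in WT discs (SD, n = 3), a log2 fold change of 2.21 ± 0.19, or 1.43 ± 0.13 corrected (edgeR adjusted p = 5.0e-05 and 3.0e-04). Cat, the catalase gene, averaged 777 ± 86.7 CPM in ds38k discs (SD, n = 4) and 332 ± 2.78 CPM in WT discs (SD, n = 3), with values of 1.22 ± 0.11 and 1.10 ± 0.11. Jafrac2, a peroxiredoxin gene, and PHGPx, a glutathione peroxidase homologue, rose by 1.02 ± 0.088 and 1.10 ± 0.10, and by 0.41 ± 0.085 and 0.48 ± 0.11 after correction. The median of the list was 0.98, close to that of the GST genes, and 0.39 after correction.

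Among 8 tested genes of glutathione synthesis and turnover, 4 rose and 2 fell (3 and 1 corrected), with a median of 0.47, and 0.30 corrected. Over all tested genes 34.2% rose and 30.8% fell, or 27.6% and 19.1% corrected. The subunits of the enzyme of the first step differed in direction: Gclm, the modifier subunit, rose (1.30 ± 0.21, and 0.91 ± 0.20 corrected), whereas Gclc, the catalytic subunit, fell by 0.60 ± 0.17, a call that ended with the correction (0.055 ± 0.16, edgeR adjusted p = 0.791). Gss2, a glutathione synthetase gene, rose (0.87 ± 0.10, and 0.67 ± 0.096 corrected). Ahcy, of the methionine cycle, rose without the correction only (0.45 ± 0.12). Eip55E, which encodes cystathionine gamma-lyase, rose as well (0.79 ± 0.13, and 0.43 ± 0.12 corrected).

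The regulators of detoxification genes were mixed, with 1 rise and 3 falls among 6 (2 and 1 corrected). This stands beside 34.2% of all tested genes that rose and 30.8% that fell (27.6% and 19.1% corrected). The median was -0.41, and -0.078 corrected. The CncC gene cnc fell by 1.58 ± 0.18 on the log2 scale and stood at -0.40 ± 0.14 after correction (edgeR adjusted p = 0.0511). Its partner gene maf-S rose (1.03 ± 0.12, and 0.25 ± 0.079 corrected). Keap1, whose product restrains CncC, had a value of -0.017 ± 0.10 without the correction and rose with it (0.41 ± 0.10). The xenobiotic receptor gene Hr96 fell (-0.80 ± 0.12, and -0.43 ± 0.13 corrected), and foxo fell without the correction only (-1.43 ± 0.50). The value of ref(2)P was 0.38 ± 0.17, not called.

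Phase I and other conjugating enzymes did not share one direction. Of 42 tested cytochrome P450 genes 9 rose and 9 fell (8 and 8 corrected), with a median of -0.24, and -0.37 corrected; of all genes 34.2% rose and 30.8% fell. The P450 rises numbered 3 without ds38k replicate 1, 2 or 3 and 4 to 5 without any one WT replicate, and 2 to 3 in those fits with the correction. The falls numbered 6 without ds38k replicate 2 or WT replicate 3, and 5 without ds38k replicate 2 with the correction. Cyp4ac2 (-5.12 ± 0.50), Cyp4ac1 (-2.75 ± 0.34) and Cyp49a1 (-3.06 ± 0.39) fell, and Cyp18a1, whose product inactivates ecdysone, rose (2.96 ± 0.37). Of 4 tested UDP-glycosyltransferase genes 2 rose, Ugt58Fa (1.72 ± 0.28) and Ugt86Di (1.08 ± 0.30), with and without the correction, whereas Ugt86Da (0.059 ± 0.13) and Ugt35a (-0.62 ± 0.80) were not called. The list's median was 0.57, and 0.47 corrected, and the other 13 of its 17 genes were not tested. MRP, a transporter that exports glutathione conjugates, fell (-1.85 ± 0.074, and -0.51 ± 0.081 corrected), while Mdr49 (-0.59 ± 0.27) and Mdr65 (-1.29 ± 0.66) were not called in either fit. Mrp4 had a value of 0.28 ± 0.46 and rose with the correction only (1.49 ± 0.51). The median over these 4 transporters was -0.94, and 0.0080 corrected.

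In tyrosine breakdown, the pathway of the zeta enzymes, 2 genes were tested. Hn, which makes tyrosine from phenylalanine, rose (2.93 ± 0.67, and 2.65 ± 0.66 corrected), with 2.28, 7.31, 2.63 and 1.43 CPM in ds38k replicates 1 to 4 and at most 0.554 CPM in WT, highest in the library with most fat body markers. Faa, the step after the zeta isomerase, had a value of -0.85 ± 0.38 and fell with the correction (-1.21 ± 0.38). Of 7 tested ecdysteroid synthesis genes 4 rose and 1 fell, or 2 rose corrected, with a median of 2.21, and 2.29 corrected; of all genes 34.2% rose and 30.8% fell. The rises numbered 2 without WT replicate 1 or 2 and 1 without WT replicate 3. With the correction there were 1 without WT replicate 2 and none without WT replicate 1 or 3. The genes were dib (2.43 ± 0.65), shd (2.18 ± 0.67), sro (1.02 ± 0.35) and sad (2.90 ± 1.06) as the rises and Npc1a (-0.99 ± 0.19) as the fall, of which dib and shd kept their calls with the correction. In dib, sro and sad the highest ds38k value was that of replicate 3, and in shd that of replicate 2. Of the 5 tested pteridine synthesis genes 3 rose, pr (0.60 ± 0.093), Sptr (0.51 ± 0.097) and DhpD (0.51 ± 0.094), and none of these calls held with the correction. The list's median was 0.60, and 0.23 corrected. Pu had a value of 1.03 ± 0.46, not called. In the same list ry, the xanthine dehydrogenase gene, was not tested and had 0.337, 0.210, 1.52 and 77.8 CPM in ds38k replicates 1 to 4 and at most 0.277 CPM in WT, a single high library that it shares with GstD10.

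Finally, 7 genes with GST-like domains or activity under other symbols were all tested. Of these 4 rose and 1 fell, or 1 rose corrected, with a median of 0.98, and 0.51 corrected. Among all tested genes 34.2% rose and 30.8% fell, or 27.6% and 19.1% corrected. The translation elongation factor gene eEF1gamma rose in both fits (0.98 ± 0.10, and 0.74 ± 0.10 corrected). Mgstl, a microsomal GST-like gene, rose by 1.47 ± 0.33 and AIMP3 and Clic by 0.78 ± 0.14 and 0.39 ± 0.11, calls that ended with the correction. The gene gfzf, which encodes a zinc finger protein with a GST domain, averaged 28.2 ± 15.2 CPM in ds38k discs (SD, n = 4) and 130.3 ± 9.78 CPM in WT discs (SD, n = 3). It fell by 2.21 ± 0.53 on the log2 scale and had a value of -1.38 ± 0.55 after correction (edgeR adjusted p = 0.0761). Gdap1 (1.28 ± 0.54) was not called in either fit.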

How the data were processed

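The values deposited for the 7 libraries are estimated counts of each gene, made by the authors with tools that the submitters' processing notes name as Trimmomatic 0.33, FastQC 0.10, Salmon 1.80 (so written there) and edgeR, on build dm6. No scaling between libraries is applied. The sources used here give neither the annotation release nor the strand setting. All columns were mapped by the names the labels give. Salmon divides reads between similar genes by a model; 19 of the 33 GST genes with counts had whole numbers in every library (tolerance 1e-09), the others partly divided estimates.

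Counts were rounded and tested with edgeR 4.0.16 in R 4.3.3 (quasi-likelihood F-test of genotype over all 7 libraries, filterByExpr with minimum count 10, TMM factors, Benjamini-Hochberg adjustment over all 9294 tested genes, threshold 0.05). The SE was taken as |log2 fold change| over the root of F. Transcript lengths and positions came from BDGP6.54, which has dm6 coordinates; levels per kb use the median annotated transcript. For the length correction, the regression of each library's deviation of log2 CPM (prior count 2) from the gene mean on log2 length was fitted (natural spline, 5 degrees of freedom) and entered as an offset. It also removes any real change that runs with length. DESeq2 1.42.0 was an alternative, and Python 3.11.15 drew the figures. The procedure was tested on simulated data.

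Members, lists and tests were chosen with earlier results of these data known. Members called in either fit, or in classes of fewer than 4, are given in full, with up to 4 genes of smallest p per list and all genes of short lists; others (GstD9, GstD10, GstE6, GstE9, GstE14, GstT3, Gclc, phm, sad, spok, Cyp6t3) were named after their values were seen. Gss1 and Hpd were not found under those symbols. No genome sequence was used here, so none is shown.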

Additional observations from a re-analysis of the deposited data

Results flagged for a closer look

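With 4 ds38k libraries, 1 library stood far from the other 3 for 10 of 30 GST genes with over 3 counts in some ds38k library. Of 11353 genes 13.7% met the same criterion. Chance marks about 1 in 20 groups of normally distributed values, a rate that need not hold for low counts. GstD6, GstE2 and GstE14 had over 3 counts only in the ds38k library that was then marked, so they entered the check through it. In 7 of them it was replicate 4: highest for GstD10 (15.1 CPM), GstD9 (29.98 CPM), GstD4 (1.83 CPM), GstD6 (0.183 CPM) and GstE1 (28.7 CPM), and lowest for GstE9 (0.622 CPM) and GstO1 (11.3 CPM). In replicate 3 the value was high for GstE14 (7.81 CPM) and GstE2 (0.411 CPM, 10 counts). GstT1 was lowest in replicate 1 (62.6 CPM), in a group whose values differ by only 1.03-fold. The ds38k values of GstO1 differ by only 1.11-fold.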

How the results depend on the processing

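The count of 14 GST genes higher and 1 lower was within 1.5 times under RLE and upper-quartile factors, DESeq2, both other low-count filters and removal of rRNA genes; upper-quartile factors moved the median of all genes to 0.33 from 0.070 and gave 63.9% of the calls as higher, against 52.7%. Removing the length trend gave 6 higher and 2 lower. Leaving out 1 replicate gave 11 to 16 higher and 1 to 2 lower, with 2 lower without ds38k replicate 4, where GstE1 joined GstT4; with the length trend removed as well, a combination chosen after seeing the data, it gave 2 to 7 higher and 1 to 3 lower, with 2 higher without WT replicate 2 or 3, and 1 lower without WT replicate 2 or ds38k replicate 2 or 3. GstE3 and GstZ2 as higher and GstT4 as lower were called in all 14 fits with a replicate left out. Whether the replicate numbers pair the samples is not stated in the labels and was not settled. Correlations of deviations from the group mean were 0.137, 0.00313 and 0.0982 for same-numbered libraries. For differently numbered libraries they ran from -0.108 to 0.0445. The replicate block, a fit with the replicate number as a further term, gave 14 higher and 2 lower, and 7 and 3 with the length trend removed. Only ds38k has a replicate 4, so by design that library did not enter the genotype difference in the block fits.

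Directions turned as follows. In the block fits ds38k replicate 4 did not enter the genotype difference, and causes beyond this design were not tested. After length correction the values were -0.038 for GstO2, -0.11 for GstO1, -0.12 for GstE6 and -0.089 for GstD9. With the replicate block the value was -0.15 for GstD10, and with block and length correction together the values were -0.93 for GstD10, -0.45 for GstD9, -0.16 for GstD1, -2.2e-04 for GstD2, -0.076 for GstD3, -0.028 for GstO2, -0.14 for GstO1 and 1.03 for GstE6, the last positive as in the uncorrected fit. GstT2 was at 0.19 with upper-quartile factors and at -0.17 to 0.053 with 1 replicate left out. With both the length correction and 1 replicate left out, the ranges were -0.16 to 0.24 for GstD1, -0.10 to 0.48 for GstD3, -0.56 to 0.42 for GstD9, -0.73 to 2.18 for GstE6, -0.036 to 1.86 for GstE9, -0.26 to 0.11 for GstO2 and -0.36 to 0.28 for GstT3. In that setting GstT3 was called lower without WT replicate 1 and GstE1 without ds38k replicate 4. Depth limits the untested genes and those under 1 CPM. Of the pathway lists with fewer members, leaving out 1 replicate gave 4 to 6 rises and 0 to 2 falls for glutathione synthesis (2 to 4 and 0 to 1 corrected), 1 to 2 and 2 to 3 for regulators (0 to 3 and 0 to 2 corrected), 0 and 1 to 3 for efflux, and 1 and 0 to 1 for tyrosine breakdown (0 to 1 each corrected).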
